A study of Tamarix ramosissima and Tamarix chinensis with 11 samples.

Results

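This account describes 139 leaf genes of 117867 in a joint Tamarix assembly whose mean level was higher under water deficit than in controls in T. ramosissima and nearly equal in T. chinensis. The genes were selected on the measured values themselves, so their responses are given as a description and not as a finding. Levels are in CPM, the count of a gene scaled to a library total of 1000000. The response of a species was the log2 ratio of its mean water deficit CPM to its mean control CPM, with 1 CPM added to each. A gene was chosen by a T. ramosissima response of at least 1, every water deficit library of that species above every control library, a mean of at least 3 CPM in those water deficit libraries, and a T. chinensis response between -0.4 and 0.4.

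Tamarix, or saltcedar, comprises deep-rooted shrubs and trees that tolerate dry and saline ground and that have spread along rivers of western North America. The 11 libraries came from leaves of seedlings that were 14 weeks old when they entered a growth chamber, T. chinensis grown from New Mexico seed and T. ramosissima from Montana seed. Well-watered controls (TCC and TRC) were compared with plants from which water was withheld until they wilted (TCWD and TRWD). T. chinensis wilted after 10 days and T. ramosissima after 17 days, so species and time without water cannot be told apart. Controls were collected at the wilting point of their own species. Species, seed source and day of collection therefore cannot be told apart in the controls either. Each library was 1 plant, with 3 libraries per group but 2 for TCC, where 1 sample was lost.

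Plants that lose water accumulate abscisic acid, close their stomata and slow their growth, and leaf cells then make protective proteins, compatible solutes and enzymes that remove reactive oxygen. Closely related plants can differ in which genes respond and in the level those genes have before the stress begins. The files pair none of the Trinity identifiers with a gene name, so no role is given to any gene here, no pathway was counted, and the leaf origin could not be checked against marker genes. Identifiers are printed below without the prefix TRINITY_ that all of them share.

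The library totals ran from 10245008 to 15655257 estimated fragments, and 3 CPM corresponded to between 30.7 and 47.0 fragments. The number of genes with a count above 0 ran from 59340 in TRWD replicate 2 to 72849 in TRC replicate 2. No library was labelled with a sequencing batch. A bulk leaf library cannot tell fewer cells of a type from less RNA per cell.

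In T. ramosissima, 20006 genes reached a mean of 3 CPM under water deficit, and these serve as the background throughout. Of them, 1531 (7.65%) had a response of at least 1, and 1034 (5.17%) also had every TRWD library above every TRC library. Most of these 1034 raised genes were raised in the other species as well, since 670 (64.8%) had a T. chinensis response of at least 1 and 170 (16.4%) lay between 0.4 and 1. The 139 genes described here were 13.4% of the 1034, and the other 55 (5.32%) had a T. chinensis response below -0.4. The same rule with the species exchanged selected 450 genes, and its mirror for genes lowered in T. ramosissima selected 138.

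**Figure D1:**
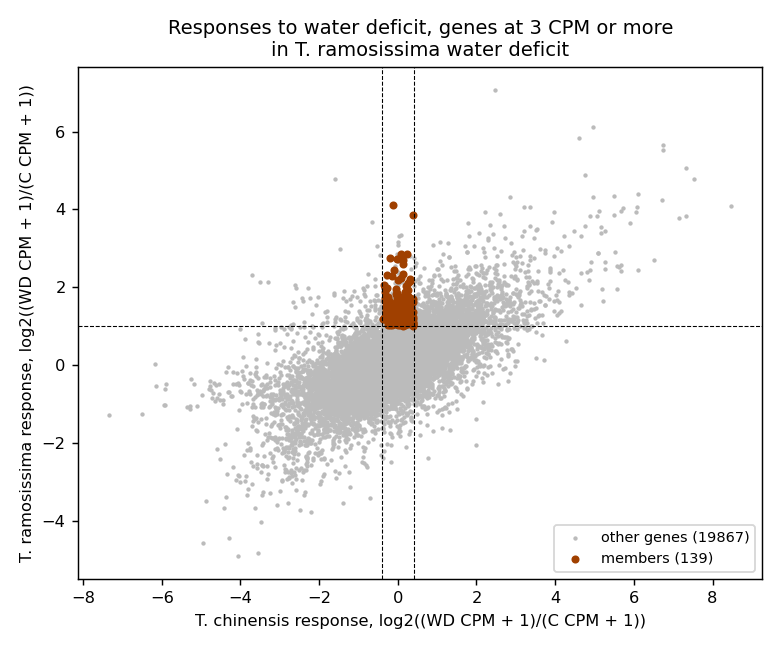
Response to water deficit in T. chinensis (horizontal axis, log2 ratio of mean CPM + 1) against the response in T. ramosissima (vertical axis, same scale) for the 20006 genes at 3 CPM or more in TRWD, with 1 point per gene the 139 chosen genes in brown and dashed lines at the limits of the rule. The chosen genes fill a narrow upright band between -0.4 and 0.4 on the horizontal axis and above 1 on the vertical axis, which is what the rule imposes.

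The median T. ramosissima response of the 139 genes was 1.34 (range 1.01 to 4.11), against 0.08 over the background, and their median T. chinensis response was 0.08, against -0.01. On the linear scale the mean TRWD level was between 2.06 and 124 times the mean TRC level, with a median of 2.90, over the 137 genes with a count in some control. Only 20 genes had a response of at least 2 and 2 a response of at least 3, so most increases were moderate. The median gene of the set stood at 7.23 CPM in TRC, 22.0 in TRWD, 9.67 in TCC and 9.12 in TCWD. Mean TRWD levels ranged from 3.12 to 2279 CPM, with 20 genes (14.4%) at 100 CPM or more, 78 (56.1%) between 10 and 100, and 41 (29.5%) below 10. Together the 139 genes held 0.525% ± 0.0152 (SD, n = 3) of the counts of a TRC library and 1.52% ± 0.302 (SD, n = 3) of a TRWD library. In T. chinensis they held 0.560% to 0.633% of TCC libraries and 0.512% to 0.899% of TCWD libraries.

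**Figure D2:**
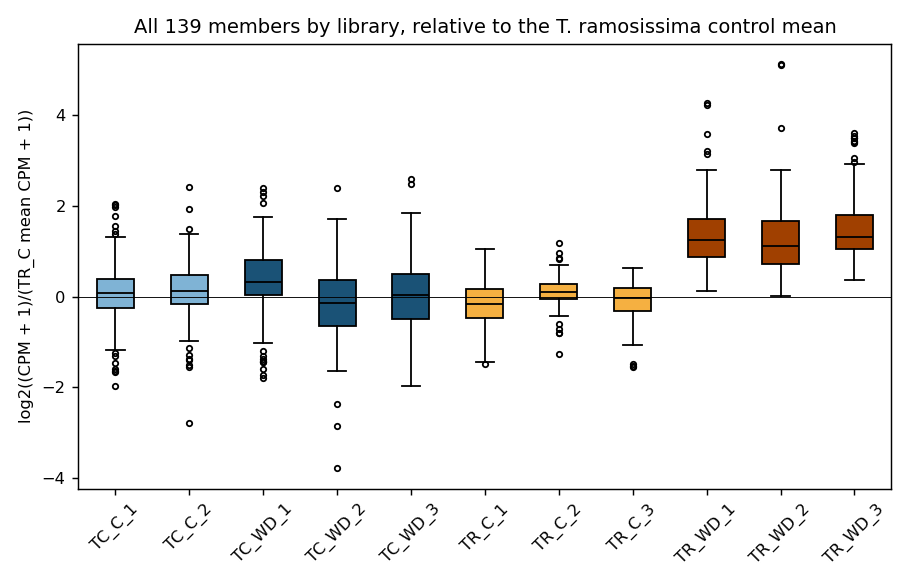
Levels of the 139 genes in each of the 11 libraries, as log2 of CPM + 1 over the TRC mean CPM + 1 (vertical axis), with 1 box per library showing the median and quartiles over genes, whiskers reaching to the farthest gene within 1.5 box heights, and points beyond. The 3 TRWD boxes have medians of 1.26, 1.12 and 1.32, while the medians of the other 8 libraries lie between -0.15 and 0.32.

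The genes nearest to each threshold show how sharply the rule divides. At the response threshold, DN32871_c0_g1 was inside at 1.007 and the nearest gene outside was at 0.999. The lowest TRWD mean inside was 3.12 CPM and the highest outside was 2.96 CPM. In T. chinensis the outermost genes inside were at -0.39 and 0.40, the latter being DN37696_c2_g1, and the nearest outside were at -0.42 and 0.40 after rounding. A further 104 genes met every condition except the separation of the libraries, 880 met all but the size of the T. ramosissima response, and 38 met all but the minimum level.

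DN25781_c1_g1 had the smallest adjusted p of the set in the test of the interaction of species and treatment. Adjusted p-values of single genes, here and below, come from contrasts that the rule used and are a description. Its levels were 5.69 and 4.34 CPM in TCC and 4.49, 4.28 and 4.97 CPM in TCWD. They were 1.71, 3.39 and 5.07 CPM in TRC and 19.1, 16.8 and 32.5 CPM in TRWD. The 8 libraries outside TRWD thus lay between 1.71 and 5.69 CPM, and the TRWD plants stood apart at 16.8 CPM or more. The ratio of means was 6.72 in T. ramosissima. By edgeR's quasi-likelihood test the T. ramosissima log2 fold change was 2.77 ± 0.40 (SE, adjusted p = 0.0191), and the interaction was 2.82 ± 0.51 (SE, adjusted p = 0.0743).

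DN40067_c4_g3, next in the same order, was more abundant. It stood at 91.0 and 65.0 CPM in TCC, 71.2, 58.3 and 57.7 CPM in TCWD, and 68.2, 59.9 and 49.0 CPM in TRC. Its TRWD levels were 258, 156 and 147 CPM, above all 8 others. The interaction by edgeR's quasi-likelihood test was 1.86 ± 0.40 (SE, adjusted p = 0.105).

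DN35373_c0_g1 and DN36689_c2_g1, chosen after their values were seen, show how close T. chinensis plants could be to each other. DN35373_c0_g1 was at 42.3 and 40.9 CPM in TCC and at 42.7, 40.2 and 41.2 CPM in TCWD, a range of 40.2 to 42.7 CPM over 5 plants of both treatments. In T. ramosissima it was at 28.2, 51.0 and 35.9 CPM in TRC and at 78.7, 110 and 85.6 CPM in TRWD. Its mean was 38.3 ± 11.6 CPM in TRC and 91.6 ± 16.7 CPM in TRWD (SD, n = 3), with an adjusted p of 0.0366 by edgeR's quasi-likelihood test. DN36689_c2_g1 was at 113 and 130 CPM in TCC and at 143, 123 and 122 CPM in TCWD. It was at 54.8, 108 and 103 CPM in TRC and at 192, 451 and 630 CPM in TRWD. Its TRWD plants differed more among themselves than all 5 T. chinensis plants did, but the lowest of them was above every other library.

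**Figure D3:**
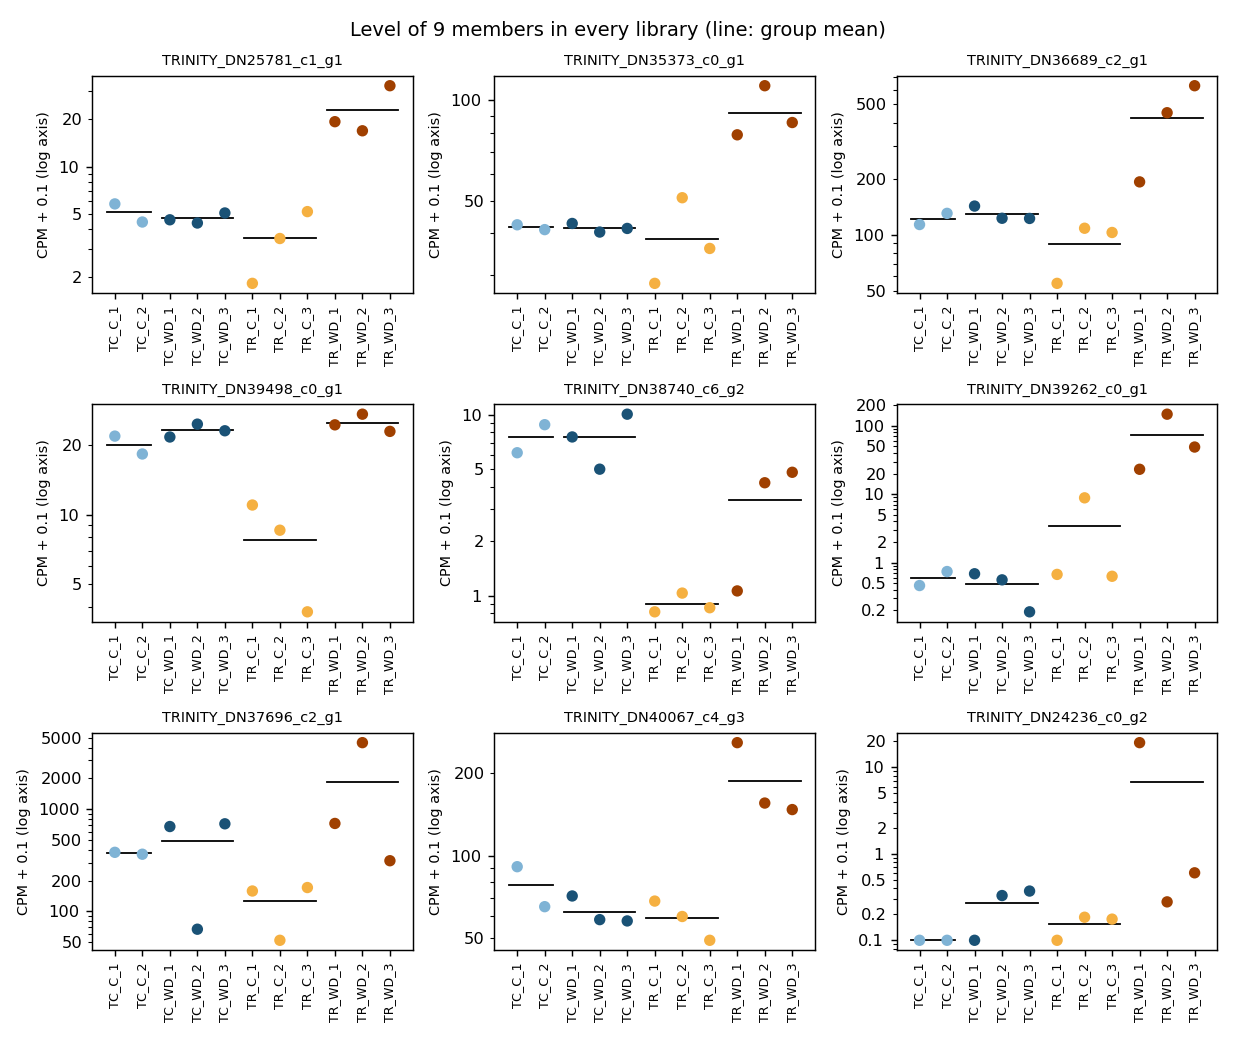
CPM plus 0.1 (vertical axes, logarithmic) of selected genes of the set in each of the 11 libraries (horizontal axes), with 1 point per plant coloured by group and a black line at each group mean. The library written TR_WD_1 on the axis is TRWD replicate 1. In each panel the 3 TRWD points lie above the 3 TRC points, while their position relative to the T. chinensis points differs from gene to gene.

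Among the 3 genes with the highest TRWD levels, DN30521_c1_g1 and DN37375_c3_g1 changed from high starting levels in both species. The other, DN37696_c2_g1, had lower levels in TRC and is described below with the largest responses. DN30521_c1_g1, the most abundant in both species, was at 825 and 1134 CPM in TCC and at 1675, 712 and 1095 CPM in TCWD. It was at 998, 656 and 856 CPM in TRC and at 1529, 2869 and 2440 CPM in TRWD, so 1 TCWD plant exceeded the lowest TRWD plant. DN37375_c3_g1 was at 499 and 676 CPM in TCC, 740, 809 and 752 CPM in TCWD, 509, 838 and 958 CPM in TRC, and 1772, 1678 and 1359 CPM in TRWD. All 3 TCWD plants of DN37375_c3_g1 were above both TCC plants, and its T. chinensis response of 0.38 lay just inside the limit.

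The largest responses rested on uneven plants. DN39262_c0_g1, with the largest response (4.11), was below 1 CPM in every T. chinensis library, at 0.571, 8.73 and 0.530 CPM in TRC, and at 23.0, 147 and 48.7 CPM in TRWD. Its lowest TRWD plant was still above its highest TRC plant, and its adjusted p was 0.0775 by edgeR's quasi-likelihood test. DN37696_c2_g1, the next in size (3.85), was at 158, 51.9 and 171 CPM in TRC and at 724, 4471 and 312 CPM in TRWD. In T. chinensis it was at 377 and 362 CPM in TCC and at 675, 66.6 and 718 CPM in TCWD, so its flat mean joined 2 plants that were higher than control and 1 that was lower. The T. ramosissima adjusted p of DN37696_c2_g1 was 0.101 by edgeR's quasi-likelihood test. DN24236_c0_g2, the third by size (2.86), was at 19.2 CPM in TRWD replicate 1 but at 0.178 and 0.503 CPM in replicates 2 and 3, and at most 0.271 CPM in the other 8 libraries. Without TRWD replicate 1 its response was 0.35.

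One plant carried the TRWD mean in several genes, among them those with the largest responses. In 16 of the 139 (11.5%, against 3.61% of the background) a single TRWD library held over 2 times the level of the others together. The choice of genes by their TRWD mean can raise this share by itself. The single library was replicate 1 in 4 genes, replicate 2 in 3 and replicate 3 in 9. DN20950_c0_g1, chosen after its values were seen, had no count in any TRC library and was at 17.6, 0.0891 and 0.839 CPM in TRWD. DN28223_c0_g1, also chosen after its values were seen, was at 0.484, 0.0891 and 11.2 CPM in TRWD against at most 0.0848 CPM in TRC. In DN20950_c0_g1 and DN28223_c0_g1 the separation of the groups rests on counts near 0 in at least 1 TRWD plant. Including DN23794_c0_g1, 4 genes of the set had more than 1 CPM in fewer than 2 T. ramosissima libraries and did not enter the test of that species.

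Across the set, TRWD replicate 3 was the highest of the 3 plants in 57 genes (41%, against 31.4% of the background), replicate 1 in 48 (34.5%, against 42.9%) and replicate 2 in 34 (24.5%, against 25.7%). TRWD replicate 2 was the lowest in 66 genes (47.5%, against 41.4%). In 43 genes (30.9%) each TRWD plant taken alone stood at least 1 log2 unit above the TRC mean, against 2.10% of the background, a share that the rule raises by itself. In 77 genes (55.4%, against 32.9%) the highest TRWD plant was over 2 times the lowest, a share that the choice by the TRWD mean can also raise. The coefficient of variation within a group was wider in the set than in the background. Its medians were 39.9% against 25.3% in TRWD and 31.0% against 18.7% in TRC. Median levels were 22.0 CPM against 19.85 CPM in TRWD and 7.23 CPM against 19.6 CPM in TRC. The part of the level, or of the choice of genes, in this spread was not tested.

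The T. chinensis plants also differed among themselves around the flat mean. In only 34 genes (24.5%, against 20.5% of the background) was each TCWD plant within 0.4 log2 units of the TCC mean, and the rule on the mean also limits the single plants. At least 1 TCWD plant was raised by 1 log2 unit or more in 9 genes (6.47%, against 15.9%) and lowered as far in 20 (14.4%, against 22.5%). In 14 genes (10.1%) all 3 TCWD plants were above both TCC plants, where 27.6% of the background did so, and in no gene were all 3 below, where 30.7% of the background did so. TCWD replicate 1 was the highest TCWD plant in 76 genes (54.7%), against 27.8% of the background. Taken alone against the TCC mean, replicates 1, 2 and 3 had median responses of 0.22, -0.18 and -0.06 over the set, and of -0.06, 0.03 and -0.09 over the background. The median coefficient of variation in TCWD was 41.8%, against 21.1%, at median levels of 9.12 CPM against 18.8 CPM. DN32463_c1_g1, chosen after its values were seen, was at 78.8 and 115 CPM in TCC but at 159, 10.9 and 200 CPM in TCWD, and its mean response in T. chinensis was 0.35.

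The difference between the species was computed from the same libraries as the rule, which favours genes with low TRC levels and makes the difference in water deficit exceed that in controls by at least 0.6 log2 units, so both differences are a description. The median control difference (TRC over TCC, log2 of mean CPM + 1) was -0.14, against -0.03 over the background, and 82 genes (59.0%, against 81.0%) lay within 0.4 of 0. In 35 genes (25.2%, against 9.14%) the TRC mean was lower by more than 0.4, and in 22 (15.8%, against 9.89%) it was higher by more than 0.4. In the 138 genes chosen by the mirrored rule as lowered in T. ramosissima the median control difference was 0.25. The median water deficit difference (TRWD over TCWD) was 1.24, against 0.07, and 82 genes (59.0%, against 11.4%) had a difference of at least 1. In 91 genes (65.5%) every TRWD library was above all 5 T. chinensis libraries, as in 5.39% of the background, a share that the choice of genes raises by itself.

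**Figure D4:**
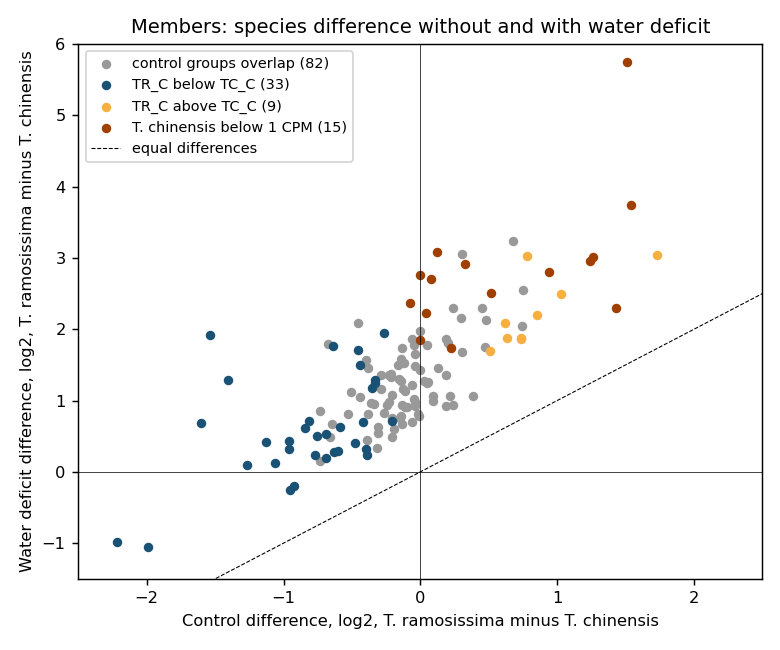
Difference between the species in controls (horizontal axis) and under water deficit (vertical axis), each as log2 of mean CPM + 1 in T. ramosissima over T. chinensis, with 1 point per gene for the 139 genes, coloured by how the control libraries of the species lay, with the 15 genes below 1 CPM throughout T. chinensis as a class of their own, and a dashed line where both differences are equal. All points lie above the dashed line, as the rule requires, and 4 of them lie below 0 on the vertical axis.

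By the levels in controls the set divided into 4 kinds of gene. In 93 genes neither species had all its controls above those of the other, and 11 of them were below 1 CPM throughout T. chinensis. The remaining 82 had median levels of 8.73 CPM in TRC, 22.3 in TRWD, 10.8 in TCC and 10.4 in TCWD. Of these 82, 61 had every TRWD library above every T. chinensis library. In the other 21 the TRWD and T. chinensis ranges overlapped. The control difference of the 82 ran from -0.74 to 0.75. DN25781_c1_g1, DN35373_c0_g1 and DN40067_c4_g3 above are of this kind.

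In 33 genes (23.7%, against 14.6% of the background) every TRC library was below both TCC libraries, a share that the choice of genes with low TRC levels can raise by itself. Of the 33, 10 had every TRWD library above all T. chinensis libraries and 2 had every one below. In the other 21 the ranges overlapped, and in 4 of these all TRWD libraries lay inside the T. chinensis range. The median levels of all 33 were 7.70 CPM in TRC, 26.0 in TRWD, 16.8 in TCC and 17.6 in TCWD. DN39498_c0_g1, chosen after its values were seen, was at 10.9, 8.48 and 3.71 CPM in TRC and at 24.4, 27.1 and 22.8 CPM in TRWD. The same gene was at 21.8 and 18.2 CPM in TCC and at 21.6, 24.5 and 23.0 CPM in TCWD. In TRWD, 2 plants lay inside the T. chinensis range and 1 just above it, and the species difference went from -1.27 in controls to 0.10 in water deficit. DN36488_c1_g2, also chosen after its values were seen, went from -1.06 to 0.13.

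The gene with the lowest TRC level relative to TCC was DN38740_c6_g2, which was at 6.05 and 8.69 CPM in TCC, 7.42, 4.89 and 9.94 CPM in TCWD, and 0.714, 0.933 and 0.757 CPM in TRC. Its TRWD levels of 0.961, 4.10 and 4.70 CPM were above TRC but below every T. chinensis plant. DN31859_c2_g1 was the other gene with every TRWD library below every T. chinensis library.

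In 13 genes (9.35%, against 7.75% of the background) every TRC library was above both TCC libraries. The largest control difference was 1.73 in DN38695_c0_g1, at 3.52 and 0.447 CPM in TCC, 1.85, 0.382 and 6.33 CPM in TCWD, and 3.64, 17.0 and 6.06 CPM in TRC. Its TRWD levels were 44.6, 28.4 and 18.8 CPM, above all other libraries, although the control plants of each species differed widely among themselves.

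In 15 genes all 5 T. chinensis libraries were below 1 CPM, as in 0.540% of the background, and 4 of these were among the 13 above. A flat T. chinensis response says little in such genes, because 1 CPM was added to both means. Their median TRWD level was 6.64 CPM, and 11 of them had every TRWD library above every T. chinensis library. No gene of the set was without a count in all T. chinensis libraries. DN27879_c3_g1, chosen after its values were seen, was at most 0.306 CPM in T. chinensis, at 0.0714, 2.29 and 3.63 CPM in TRC, and at 4.97, 6.95 and 30.6 CPM in TRWD.

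Leaving out 1 library at a time showed how many genes the rule would still choose. Between 93 and 136 of the 139 remained, the fewest without TCWD replicate 1 and the most without TRC replicate 2. The number of genes chosen ran from 126 to 254, and it was 254 both without TRC replicate 2 and without TRWD replicate 2. Whichever T. ramosissima library was left out, 69 genes (49.6%) remained, and whichever T. chinensis library was left out, 47 (33.8%) remained. Only 19 genes (13.7%) remained whichever of the 11 libraries was left out, among them DN25781_c1_g1, DN35373_c0_g1, DN36689_c2_g1, DN39262_c0_g1 and DN39498_c0_g1. These 19 had T. ramosissima responses of 1.22 to 4.11 and T. chinensis responses of -0.27 to 0.27.

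**Figure D5:**
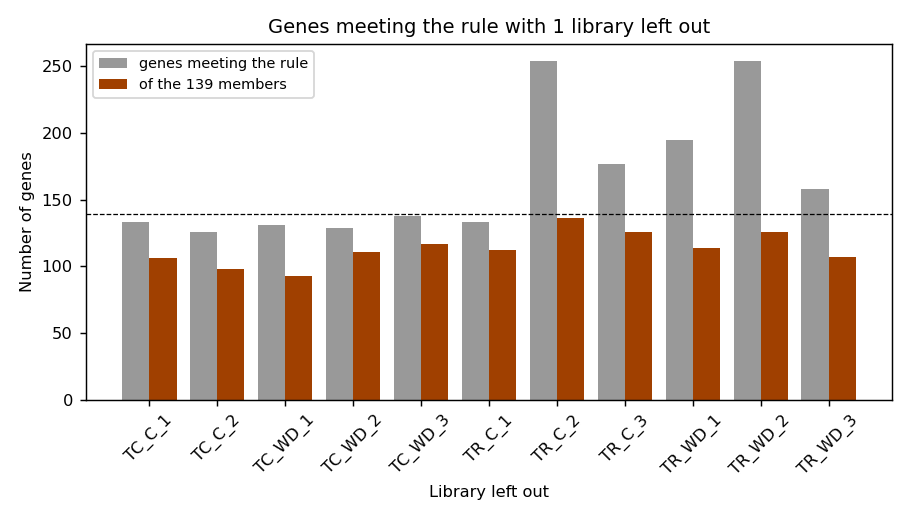
Number of genes (vertical axis, from 0) meeting the rule when the library named on the horizontal axis was left out, with bars for all genes chosen and for those among the original 139, and a dashed line at 139. Without TRC replicate 2 or TRWD replicate 2 the number chosen was 254, and without any other library it was between 126 and 195.

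At the study's thresholds (adjusted p no higher than 0.005, change of 1 log2 unit or more), the quasi-likelihood test of edgeR called 0 of the 135 genes tested in T. ramosissima. The share called raised over all 29025 genes tested was 0%, and the smallest adjusted p over them was 0.0117. An unadjusted p under 0.05 was reached by 130 of the 135, all raised, where 10.4% of all genes were raised at that level. At an adjusted p of at most 0.05, 35 genes of the set passed, where 1.54% of all genes were called raised. edgeR's exact test at the study's thresholds called 41, where 1.83% of all genes were called raised, and DESeq2 called 61, where 2.15% were called raised. The rule used this contrast, so nothing is read from these shares.

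In T. chinensis the quasi-likelihood test called 0 of 118 genes of the set, where 0.347% of all genes tested were called, and none reached an unadjusted p under 0.05, where 36.8% of all genes did. edgeR's exact test and DESeq2 also called 0, where they called 14.2% and 14% of all genes. The rule used this contrast too. A p that misses the threshold does not show that these genes were unchanged, given the spread between plants described above. For the interaction of species and treatment, the quasi-likelihood test called 0 of 135, where 0.00639% of all genes were called. Of the 135, 67 (49.6%) reached an unadjusted p under 0.05, where 11.6% of all genes did. All 67 had a positive interaction, where 6.56% of all genes were positive at that level. DESeq2 called 2 interactions (1.48%), DN25781_c1_g1 and DN40067_c4_g3, both positive. Of all genes it called 1.12% in either direction and 0.846% positive. The interaction is the difference of the responses that the rule used, so these counts are a description.

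Between the controls of the species, the quasi-likelihood test called 0 of 123 genes of the set and 0% of all genes, and 26 genes of the set (21.1%) reached an unadjusted p under 0.05, where 7.72% of all genes did. Of the 26, 10 were higher in T. ramosissima (8.13% of the genes tested, against 4.56% of all genes). edgeR's exact test and DESeq2 each called 2, DN38740_c6_g2 and DN31859_c2_g1, both lower in T. ramosissima. Of all genes they called 0.585% and 0.51% in either direction. Between the water deficit plants, the quasi-likelihood test called 0 of 135 and 0% of all genes, and 84 of the 135 (62.2%) reached an unadjusted p under 0.05, where 24.9% of all genes did. Of the 84, 83 were higher in T. ramosissima (61.5% of the genes tested, against 12.9% of all genes). At an adjusted p of at most 0.05, 22 passed, all higher in T. ramosissima, where 2.19% of all genes were called higher. edgeR's exact test called 32 and DESeq2 42, where they called 3.25% and 3.6% of all genes higher. All libraries of these comparisons also entered the rule.

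A Trinity gene belongs to an assembly component, a group of contigs with shared sequence, and a component can hold several genes among which reads may be divided. The 139 genes came from 136 components, and 50 (36.0%, against 33.8% of the background) were the only gene of their component. When the counts of each component were summed, the sum met the rule for all 50 of these by construction and for 46 of the 89 genes in larger components. Of those 89 genes, 61 had a component sum with a T. ramosissima response of at least 1. The T. chinensis response of the component sum was above 0.4 for 13 of the 89 and below -0.4 for 9. The components held 173 other genes, 46 of which reached 3 CPM in TRWD. Of these 46, 10 (21.7%, against 7.65% of the background) had a T. ramosissima response of at least 1. In T. chinensis 9 (19.6%, against 9.77%) had a response of at least 1, and 2 had a response of -1 or lower. For some genes of the set a neighbour in the assembly thus had a higher water deficit mean in T. chinensis.

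In 3 components 2 genes of the set occurred together. DN31552_c0_g2 and DN31552_c0_g1 moved in parallel, at 53.8 and 36.5 CPM in TRWD replicate 1, 29.0 and 19.0 CPM in replicate 2, and 39.3 and 25.8 CPM in replicate 3. Their ratio stayed between 1.28 and 1.94 over the 11 libraries. The ratio was 2.37 to 4.17 for DN34668_c1_g2 over DN34668_c1_g1 and 6.92 to 17.7 for DN40127_c2_g1 over DN40127_c2_g8. These pairs share libraries and assembly component and are not independent genes.

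The genes of the set had a shorter implied effective length than the background, while contig lengths themselves were not measured. The effective length implied by the counts and by TPM, a length-corrected abundance, taken relative to the median gene of the library, had a median of 0.683, against 0.989 over the background. It was 0.954 in the 450 genes chosen by the rule with the species exchanged, 0.798 in the 138 genes lowered in T. ramosissima, and 0.843 in 591 genes raised in both species. A gene's implied length can differ between libraries when reads fall on different contigs, and between TRC and TRWD it moved by over 0.2 log2 units in 14 of the 98 genes of the set with enough counts (14.3%, against 10.6% of the background). A count that was not whole, which can mark reads shared with contigs of another gene, occurred in 43 genes (30.9%, against 25.2%). The part of read sharing in the differences between species was not tested.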

How the data were processed

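The authors trimmed reads with Prinseq, assembled both species jointly with Trinity, aligned each library with Bowtie and quantified it with RSEM. Expected counts, RSEM's estimates of fragments per gene, are deposited without normalization, and the deposited TPM values are those of the authors' RSEM runs. Without a genome, a gene is a group of contigs, and fragments fitting several contigs were shared out before deposit.

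CPM were computed from the counts as deposited. For tests the expected counts were rounded and fitted in R 4.3.3 with edgeR 4.0.16 (TMM factors, quasi-likelihood test, genes above 1 CPM in at least 2 libraries of the fit, Benjamini-Hochberg adjustment over all genes tested). Each fit used only the groups compared, and the interaction used all 11 libraries. DESeq2 1.42.0 and edgeR's exact test were alternatives. The scripts were tested on simulated data. TPM were used for effective length and as an alternative scale.

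Genes were named by rule: the 3 largest responses, the 3 highest TRWD levels, the highest T. chinensis level, the 2 smallest interaction p-values, and the extremes of the control difference. Others are marked in the text. The 139 genes and all comparisons were chosen with earlier results of these data known. P-values measure the spread between single plants grown together. Columns of no sample numbered 0.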

Additional observations from a re-analysis of the deposited data

How the results depend on the processing

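Of the genes of the set that were tested, 0 were called in each of the 5 comparisons by edgeR's quasi-likelihood test. This was also so with median-ratio factors, with library size only, with the replicate block and without each library in turn. Over all genes these settings called 0% in T. ramosissima and between water deficit plants. Between controls they called 0%, except 0.0886% with the replicate block. In T. chinensis they called 0.347% with TMM factors, 0.351% with median-ratio factors, 0.457% with library size only and 0% with the block. For the interaction the test called 0.00639% with TMM factors and 0% with the block. At an adjusted p of at most 0.05, 35 genes of the set passed in T. ramosissima and 22 between the water deficit plants. The exact test called 41 in T. ramosissima, 2 between controls and 32 between water deficit plants, and DESeq2 called 61, 2 and 42 there and 2 for the interaction. With no filter on low counts, the quasi-likelihood test called 84 in T. ramosissima, 20 for the interaction, 11 between controls and 66 between water deficit plants. Of all genes it called 2.26%, 0.932%, 0.825% and 3.30% in either direction. The 84, 20 and 66 genes all had a positive log2 fold change. Of all genes 1.09%, 0.610% and 1.91% were called positive in these 3 comparisons. The cause of the higher counts without the filter was not tested. In T. chinensis all of these settings called 0 genes of the set. Of all genes there, 15.6% were called at an adjusted p of at most 0.05 and 5.68% with no filter. Without TCWD replicate 2 the quasi-likelihood test of T. chinensis called 3.14% of all genes. For the interaction without TRWD replicate 1 it called 0.285% of all genes.

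The rule chose 210 genes on the TPM scale, 94 of them among the 139, and 126 to 254 without 1 library, the highest without TRC replicate 2 or TRWD replicate 2. On TMM-scaled CPM it chose 128, of which 119 were among the 139. With a pseudocount of 0.1, 0.5 or 2 it chose 145, 146 and 131, of which 115, 130 and 114 were among the 139. A minimum of 1 CPM gave 177 genes and 10 CPM gave 98. TCWD replicate 1 was the highest TCWD plant in 78 genes on TMM-scaled CPM and in 75 on TPM, both tried after the data were seen. Among the 9 genes named by rule, leaving out 1 library took the T. chinensis response outside the limits of 0.4 in 5. It ran from -0.49 to 1.41 in DN38695_c0_g1, 0.01 to 0.91 in DN37696_c2_g1, 0.18 to 0.62 in DN37375_c3_g1, -0.12 to 0.50 in DN30521_c1_g1 and -0.54 to -0.06 in DN40067_c4_g3. The T. ramosissima response came below 1 in 3, at 0.35 in DN24236_c0_g2 (without TRWD replicate 1), 0.84 in DN37375_c3_g1 and 0.97 in DN38740_c6_g2, and that of DN37696_c2_g1 ran from 2.02 to 4.35. On TPM the T. chinensis response of DN24236_c0_g2 was 0.47.

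The labels do not say that replicate numbers pair plants across treatments. Deviations from the group means of same-numbered libraries correlated at -0.151, -0.163 and 0.0826 in T. ramosissima. In T. chinensis they correlated at 0.0156 and 0.0891. With 2 or 3 libraries per group, such values cannot show whether plants were paired. With the replicate block 0 genes of the set were called in all 5 comparisons. Of all genes it called 0.0886% between controls and 0% in the other comparisons.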
